A study of Glycine max with 18 samples.

Results

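The 200 genes described here had the smallest spread of expression across germinating soybean embryonic axes. They were chosen by their values: a gene had to reach 10 RPKM (reads normalised to gene length and to the mapped reads of the library) in each of the 18 libraries, and the 200 genes with the smallest standard deviation (SD) of log2(RPKM + 0.1) over those libraries were taken. Of 56044 genes in the deposited table, 7683 genes (13.7%) reached 10 RPKM in every library and are called eligible genes below, and the 200 members were 2.60% of these. Axes were separated from the cotyledons of seeds of a single cultivar that had taken up water alone (control) or a 200 µM solution of paclobutrazol (PBZ) for 12, 24 or 36 hours (hours after imbibition, HAI). Polyadenylated RNA was sequenced from 3 replicates of each of the 6 conditions, which the methods call biological replicates. The methods give 3 plates of 20 seeds for each sample and do not say whether plates were pooled. Because the members were picked by the values of all 18 libraries, their low spread is a description, and no test on these values was read as evidence for them.

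A reference gene, or normaliser, is a gene whose transcript level changes little between the samples compared, so that the levels of other genes can be expressed relative to it in RT-qPCR. Genes of translation, the cytoskeleton, ubiquitin conjugation and glycolysis are the classical choices, and a normaliser that drifts with the treatment or with time carries its drift into every gene measured against it. Germination is a demanding setting for such a gene, because stored transcripts of the dry seed are degraded while new transcription starts. PBZ blocks the synthesis of gibberellin, a hormone that promotes germination, at kaurene oxidase. RPKM expresses a transcript as a share of all uniquely mapped reads, so every level below is relative to the rest of the transcriptome, and in whole axes fewer cells of a type and less RNA per cell cannot be told apart.

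The setting was one of large change. By limma on log2(RPKM + 0.1), 14109 of 33588 genes tested (42.0%) differed between control axes at 36 and 12 HAI with a Benjamini-Hochberg adjusted p of at most 0.05 and a change of at least 1 on the log2 scale, and 14813 of 33825 (43.8%) did so between PBZ axes at those times. Transcripts annotated as oleosins, the oil body proteins of seeds, summed to a mean of 294 RPKM in 12 HAI control and 7.05 RPKM in 36 HAI control (2 genes), whereas a chlorophyll a-b binding protein gene went from 6.20 to 146 RPKM. Annotations were at hand only for part of chromosome 1 and for genes called by the study, so these sums do not cover the whole families. The relative depth of the libraries, estimated from how finely low RPKM values are graded and set to 0 for 24 HAI control replicate 1, ran from -0.29 to 1.51 on the log2 scale. Some libraries stood apart in the share of summed RPKM taken by 63 genes, called organelle-like here. This list was picked on these same libraries for PBZ responses of opposite sign at 24 and 36 HAI. It holds many nuclear copies of chloroplast and mitochondrial genes, but the paper does not give every gene on it an organellar copy. The share of these 63 genes was 11.4%, 0.732% and 7.58% in the 12 HAI control replicates, 3.85% to 7.42% with PBZ at 12 HAI, 0.248% to 0.308% in 24 HAI control, 4.43% to 7.37% with PBZ at 24 HAI, 0.187%, 0.223% and 5.03% in 36 HAI control and 0.242% to 0.415% with PBZ at 36 HAI. The libraries were therefore also rescaled without these genes.

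Among the members, the SD of log2(RPKM + 0.1) over the 18 libraries ran from 0.0679 to 0.122 with a median of 0.106, whereas the eligible genes had a median of 0.296 and reached 2.61. Expressed as the ratio of the highest to the lowest library, the members spanned 1.20 to 1.43 with a median of 1.30, so that none of the 200 members varied by more than 1.5 times over germination and PBZ treatment. The eligible genes had a median ratio of 2.02 and a highest ratio of 130.5. The coefficient of variation of RPKM was 4.68% to 8.79% among members, with a median of 7.35%, against a median of 20.5% among eligible genes. In 70 members every one of the 18 libraries lay within 0.2 of the gene's own mean on the log2 scale. The limit of 200 genes fell in a dense part of the distribution. The last members were Glyma.16G087700 at an SD of 0.1212, Glyma.12G182700 at 0.1213 and Glyma.10G025400 at 0.121606, and the first genes outside were Glyma.15G013400 at 0.121609, Glyma.11G104900 at 0.12164 and Glyma.10G048400 at 0.1217.

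**Figure D1:**
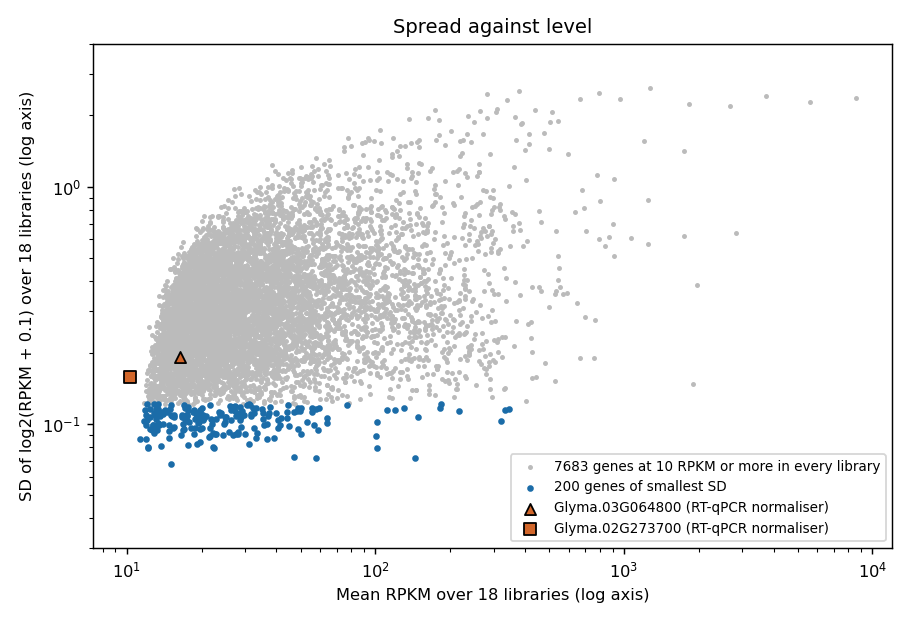
Each point is a gene, with the mean RPKM over 18 libraries on the x axis and the SD of log2(RPKM + 0.1) over the same libraries on the y axis, both on log axes. Grey points are the 7683 eligible genes, blue points the 200 members with an SD of at most 0.122, and orange symbols the 2 genes used as RT-qPCR normalisers, which lie above the members at SDs of 0.192 and 0.158.

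Members were genes of modest level. Their mean level ran from 11.3 to 344 RPKM, with a median of 22.0 RPKM and quartiles of 15.5 and 35.2 RPKM, and the eligible genes had a median of 28.3 RPKM. On average 88 members (44%) were under 20 RPKM, 98 were between 20 and 100 RPKM, and 14 (7%) were at 100 RPKM or more, where 26.4% of eligible genes were under 20 RPKM and 10.6% at 100 RPKM or more. When eligible genes were ordered by mean level and divided into 10 bins, the lowest bin (11.3 to 15.9 RPKM) held 51 members among 769 genes, the highest bin (104 to 8600 RPKM) held 11 among 769, and the other bins held 8 to 23. The floor of the rule weighs on the lowest bin, since a gene with a mean close to 10 RPKM reaches 10 RPKM everywhere only if its spread is small: of 13448 genes with a mean of at least 10 RPKM, 5765 were under 10 RPKM in at least 1 library.

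The gene with the smallest SD was Glyma.02G165800, at 0.0679 ± 0.0139 (jackknife standard error over 18 libraries) and a mean of 15.1 RPKM. Its RPKM values were 15.7, 15.9 and 15.3 in 12 HAI control and 14.2, 15.3 and 15.1 with PBZ, 16.1, 14.9 and 15.4 in 24 HAI control and 14.2, 14.7 and 15.0 with PBZ, and 15.2, 15.4 and 14.9 in 36 HAI control and 16.4, 13.5 and 14.8 with PBZ. The highest and the lowest of the 18 values, 16.4 and 13.5 RPKM, were both replicates of 36 HAI PBZ, and its 6 condition means lay within 0.10 of each other on the log2 scale. With any single library left out, it ranked between 1 and 3.

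Glyma.16G056600 followed at an SD of 0.0718 ± 0.0140 and was the most abundant of the first 10 members, with a mean of 144 RPKM. It was measured at 141, 140.0 and 129 RPKM in 12 HAI control, 151, 141 and 143 with PBZ, 145, 145 and 144 in 24 HAI control, 143, 137 and 139.7 with PBZ, 156, 140.4 and 142 in 36 HAI control and 158, 147 and 156 with PBZ. Its 24 HAI control replicates were nearly equal, its lowest library was 12 HAI control replicate 3, and its condition means were highest in 36 HAI PBZ and lowest in 12 HAI control, 0.17 apart on the log2 scale.

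Glyma.01G222400 (mean 57.8 RPKM, SD 0.0722 ± 0.0117) had the closest condition means among the first 10 members, within 0.081 of each other on the log2 scale. Its values were 57.3, 63.2 and 59.2 RPKM in 12 HAI control, 56.2, 62.1 and 57.3 with PBZ, 55.3, 55.3 and 60.7 in 24 HAI control, 57.5, 57.1 and 57.0 with PBZ, 57.3, 62.2 and 52.4 in 36 HAI control and 59.5, 54.0 and 56.2 with PBZ. Nearly all of its spread lay between replicates, with a pooled SD within conditions of 0.079 against an SD of condition means of 0.030.

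Glyma.20G077000 (mean 47.1 RPKM, SD 0.0727 ± 0.0117) was slightly lower on average at the later times. It was at 46.3, 50.6 and 49.3 RPKM in 12 HAI control, 50.6, 47.9 and 50.7 with PBZ, 46.6, 48.1 and 48.2 in 24 HAI control, 44.5, 44.8 and 44.5 with PBZ, 47.9, 44.6 and 46.8 in 36 HAI control and 47.6, 42.3 and 46.6 with PBZ. All 3 PBZ replicates at 24 HAI were below all 3 controls of that time, by 0.09 on the log2 scale, and the 12 HAI PBZ replicates were above those of 36 HAI PBZ.

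Glyma.03G013000 (mean 22.4 RPKM, SD 0.0789 ± 0.0221) had the largest jackknife error of the first 10 members, which came with 1 low library. Its values were 19.2, 22.9 and 24.2 RPKM in 12 HAI control, 22.5, 21.8 and 20.7 with PBZ, 23.6, 24.3 and 22.7 in 24 HAI control, 22.3, 23.0 and 22.5 with PBZ, 21.5, 22.1 and 22.2 in 36 HAI control and 23.0, 23.1 and 22.3 with PBZ. The lowest value, 19.2 RPKM, was in 12 HAI control replicate 1, the library with the largest organelle-like share (11.4%), and the part of that share in the low value was not tested.

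Glyma.19G182000 (mean 102 RPKM, SD 0.0791 ± 0.0109) was the other abundant gene among the first 10 members. It was at 97.3, 112 and 102 RPKM in 12 HAI control, 93.2, 92.5 and 103 with PBZ, 96.6, 105 and 101 in 24 HAI control, 97.5, 95.4 and 102 with PBZ, 109, 108 and 100.5 in 36 HAI control and 102, 104 and 109 with PBZ. Control and PBZ values overlapped at every time point.

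The remaining genes of the first 10 were Glyma.09G073700 (12.1 RPKM, SD 0.0795), Glyma.10G292100 (22.2 RPKM, SD 0.0800), Glyma.07G248900 (12.1 RPKM, SD 0.0803) and Glyma.01G122100 (13.8 RPKM, SD 0.0811). Glyma.09G073700 ranged from 10.5 to 13.2 RPKM and Glyma.07G248900 from 11.2 to 13.98 RPKM, so both stayed close to the floor of 10 RPKM. Glyma.10G292100 ranged from 19.9 to 24.1 RPKM and was highest on average in 24 HAI control (23.4, 23.6 and 23.5 RPKM) and lowest on average with PBZ at 24 HAI (19.9, 21.3 and 21.4 RPKM), values that did not overlap. The jackknife errors of the SDs of the first 10 members, 0.0108 to 0.0221, were similar in size to the whole range of those SDs (0.0679 to 0.0811), so neighbours in this order do not differ beyond their error.

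**Figure D2:**
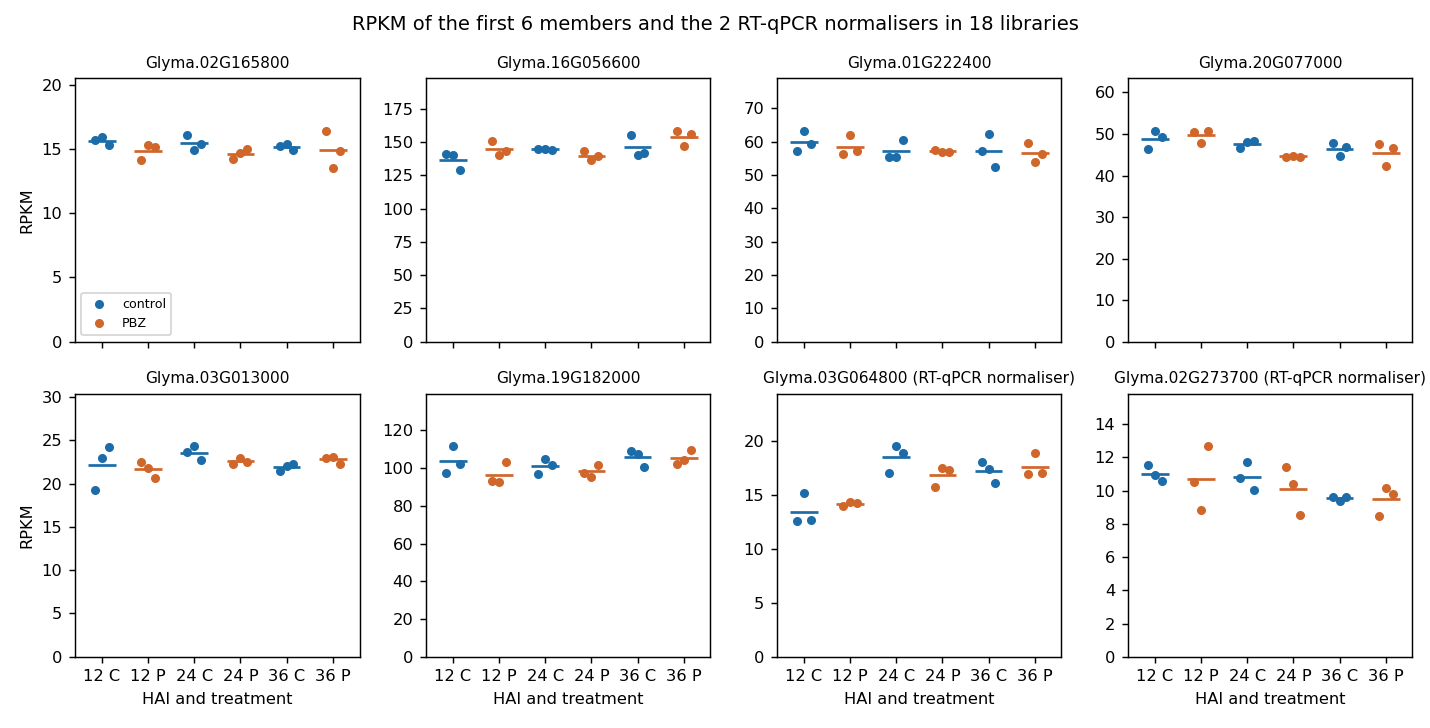
RPKM of the first 6 members and of the RT-qPCR normalisers Glyma.03G064800 and Glyma.02G273700 in every library, by HAI and treatment (C and blue, control; P and orange, PBZ), with each condition's mean as a bar and the y axes starting at 0. The values of Glyma.02G165800 stay between 13.5 and 16.4 RPKM, while those of Glyma.03G064800 run from 12.5 RPKM at 12 HAI to 19.5 RPKM at 24 HAI.

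The most abundant members were Glyma.12G066700, Glyma.18G258900 and Glyma.11G143400, with means of 344, 333 and 321 RPKM. Glyma.11G143400 (SD 0.103) was at 276, 314 and 298 RPKM in 12 HAI control and at 345, 353 and 355 RPKM in 24 HAI control, and returned to 317, 306 and 302 RPKM in 36 HAI control. On the RPKM scale its 24 HAI control values were all above those of the other control times, whereas with size factors its SD ranked 1 among all genes at the floor. Glyma.18G258900 (SD 0.115) reached 414 RPKM in 12 HAI PBZ replicate 1 and was between 293 and 380 RPKM in the other libraries. Glyma.12G066700 (SD 0.115) lay between 304 and 396 RPKM. At the other end, Glyma.06G323200, Glyma.05G163800 and Glyma.02G092400 had means of 11.3, 11.8 and 11.9 RPKM. Glyma.06G323200 never left the range of 10.3 to 12.3 RPKM, which was the smallest ratio of highest to lowest value of any member (1.20), but it dropped below the floor when the libraries were rescaled without the organelle-like genes.

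What set the members apart from other expressed genes was mainly how little their condition means moved. The SD of the 6 condition means had a median of 0.0763 among members and 0.277 among eligible genes, a ratio of 3.63. The pooled SD between replicates within conditions had medians of 0.0879 and 0.140, a ratio of 1.59. As a share of each gene's sum of squares, time took a median of 25.7% among members and 74.2% among eligible genes, treatment 2.12% and 1.02%, the combination of time and treatment 10.1% and 4.03%, and replicates within conditions 52.8% and 17.6%. More than 50% of the sum of squares lay within conditions in 118 members, and in 11.4% of eligible genes. Since the rule minimized this sum of squares, these shares describe the chosen genes and are not evidence about them.

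The part that remained between conditions was not the same for all members. The highest and the lowest condition mean of a member differed by 0.072 to 0.352 on the log2 scale, with a median of 0.202 (0.694 among eligible genes). The highest condition was 24 HAI control in 78 members, 24 HAI PBZ in 31, 12 HAI control in 29, 36 HAI PBZ in 29, 12 HAI PBZ in 23 and 36 HAI control in 10. The lowest was 36 HAI control in 54 members, 12 HAI PBZ in 49, 24 HAI PBZ in 38, 36 HAI PBZ in 25, 12 HAI control in 22 and 24 HAI control in 12. This order belongs to the RPKM scale: with size factors 24 HAI control was the highest condition in 9 members and the lowest in 53, and 36 HAI control the highest in 40 and the lowest in 15. After rescaling without the organelle-like genes 12 HAI control was the highest in 93 members and 36 HAI control the lowest in 120. Matching counts over the eligible genes are not given here. As deposited, the median deviation of eligible genes from their own means was 0.088, 0.083 and 0.067 in the 24 HAI control libraries. It was -0.089, -0.129 and -0.102 in those of 36 HAI control.

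PBZ moved the members by small amounts. PBZ minus control had a median over the members of -0.02 on the log2 scale at 12 HAI, -0.06 at 24 HAI and 0.03 at 36 HAI, close to the medians of the eligible genes at the same times (-0.02, -0.03 and 0.03). At 12 HAI 76 members were higher with PBZ and 124 lower, at 24 HAI 48 were higher and 152 lower, and at 36 HAI 137 were higher and 63 lower, whether or not the replicates overlapped. Among eligible genes 44.7%, 44.1% and 58.0% were higher with PBZ at these times. The medians at 12 and 36 HAI changed sign under median-ratio size factors, to 0.003 and -0.015, with 103, 89 and 83 members higher with PBZ at 12, 24 and 36 HAI. After rescaling without the organelle-like genes the medians were -0.07, -0.06 and 0.05, with 46, 46 and 157 members higher. None of the 200 members, all of which entered the comparison, passed an adjusted p of 0.05 and a log2 change of 1 at 12 HAI (0.0102% of all genes tested passed), at 24 HAI (0.918%) or at 36 HAI (0.128%), as the rule itself ensures, and 1, 21 and 2 members had an unadjusted p of at most 0.05 in limma at these times, as did 5.04%, 26.5% and 8.85% of all genes tested. The 3 PBZ replicates lay entirely above the 3 controls in 5 members and entirely below in 11 at 12 HAI, where 10.1% of eligible genes did not overlap. At 24 HAI this held for 7 and 53 members (45.0% of eligible genes), and at 36 HAI for 25 and 4 members (14.3%). Without the minimum change 0.0102%, 3.42% and 0.165% of all genes tested passed at the 3 times, and none of them was a member. With size factors 1 member passed at 24 HAI, where 1147 of 30887 genes tested passed. These counts are read no further, since the rule used the same values.

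The members named here had the largest PBZ differences of either sign at each time, so they are extremes picked from all members. None had an adjusted p of at most 0.05 in limma at that time, and the differences are read no further. At 12 HAI the adjusted p was 0.925 for Glyma.19G208200 and 0.992 for Glyma.12G078100. At 24 HAI it was 0.0685 for Glyma.01G234200 and 0.119 for Glyma.15G154000. At 36 HAI it was 0.518 for Glyma.02G254000 and 0.637 for Glyma.12G089200. The largest difference was in Glyma.19G208200 at 12 HAI, with 158, 166 and 153 RPKM in control and 199, 205 and 206 RPKM with PBZ, a log2 difference of 0.35. The same gene was at 188, 190 and 181 RPKM in control and 178, 176 and 176 RPKM with PBZ at 24 HAI, where the groups again did not overlap but in the other order. The largest decrease at 12 HAI was in Glyma.12G078100, with 119.8, 125 and 125 RPKM in control and 106, 98.6 and 114 RPKM with PBZ (-0.22), again without overlap. At 24 HAI Glyma.01G234200 was the member with the largest positive difference, at 57.4, 54.9 and 52.3 RPKM against 45.1, 47.5 and 44.8 RPKM in control, a log2 difference of 0.26. Glyma.15G154000 had the largest negative difference at that time, at 25.99, 24.3 and 22.9 RPKM with PBZ against 30.2, 28.1 and 27.5 RPKM in control, a difference of -0.23. At 36 HAI the extremes were Glyma.02G254000, with 22.3, 20.6 and 21.4 RPKM with PBZ and 18.5, 18.6 and 19.0 RPKM in control (0.19), and Glyma.12G089200, with 45.1, 49.95 and 39.1 RPKM with PBZ and 52.3, 52.0 and 49.1 RPKM in control (-0.20). In the last gene the groups overlapped, and 1 PBZ replicate, at 39.1 RPKM, was the lowest of its 18 values.

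Over time the members moved little, which follows from the rule, since it used these same values. The counts below describe the chosen genes and are not evidence about them. Between 12 and 36 HAI the median log2 change of the members was -0.04 in control (74 higher, 126 lower) and 0.01 with PBZ (103 higher, 97 lower), where the eligible genes had medians of -0.12 and -0.09. With the libraries rescaled without the organelle-like genes, the members' medians became -0.21 and -0.10, and with size factors -0.01 and -0.03. The largest increase of a member in control was that of Glyma.17G000700, from 36.9, 40.5 and 38.2 RPKM at 12 HAI to 45.1, 47.4 and 44.0 RPKM at 36 HAI (0.24 on the log2 scale). The largest decrease was that of Glyma.13G194900, from 16.5, 15.3 and 14.7 RPKM to 12.5, 12.98 and 12.5 RPKM (-0.29). With PBZ the extremes were Glyma.08G234600, which went from 15.5, 15.9 and 15.7 RPKM to 19.3, 18.8 and 18.9 RPKM (0.27), and Glyma.12G131600, from 92.3, 80.1 and 86.9 RPKM to 69.4, 73.2 and 72.5 RPKM (-0.27). In all 4 genes the 3 replicates of one time lay beyond those of the other. Such non-overlap was found in 11 members that were higher and 29 that were lower at 36 HAI in control (69.1% of eligible genes in either direction), and in 27 and 19 members with PBZ (68.5%). Past an adjusted p of 0.05 without a minimum change were 5 members in control (72.7% of genes tested), namely Glyma.17G000700, Glyma.13G194900, Glyma.04G246200, Glyma.08G152600 and Glyma.01G164100, and 3 with PBZ (70.0%), namely Glyma.08G234600, Glyma.12G131600 and Glyma.01G015000. These counts turned on the scaling and on single libraries. The 5 members in control became 9 with size factors, 15 with quantile normalization and 88 after rescaling without the organelle-like genes. Of all genes tested in control, 24772 of 33710, 24807 of 33524 and 25272 of 33491 passed in these settings. The 3 members with PBZ became 2, 8 and 14, where 23832 of 33876, 23977 of 33689 and 23830 of 33732 genes tested passed. Leaving out a control library gave 2 without 12 HAI replicate 2 or 3, 0, 3 and 1 without 36 HAI replicates 1, 2 and 3, and 6 without 12 HAI replicate 1. Of the 33493 to 33656 genes tested in these fits, 22630 to 23685 passed. Leaving out a PBZ library gave 13 without 12 HAI replicate 2, 2 without 12 HAI replicate 1 and 0 without any one of the other 4. Here 21117 to 24484 of the 33736 to 33883 genes tested passed. With the minimum change of 1 none was called in control or PBZ, and 8 and 6 members had an unadjusted p of at most 0.05, as did 75.1% and 72.8% of all genes tested.

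Seen library by library, the members shared small shifts. The mean deviation of the 200 members from their own means ran from -0.07 in 36 HAI control replicate 3 to 0.07 in 12 HAI control replicate 2 on the log2 scale, while the median deviation of the eligible genes ran from -0.13 to 0.10. After rescaling without the organelle-like genes the members' mean deviation ran from -0.14 to 0.11. The members summed to 1.04% of all RPKM in 36 HAI control replicate 3 and 1.28% in 12 HAI control replicate 2, with the other libraries in between. Among the 12 HAI control replicates, the mean deviation was -0.05 in replicate 1, with an organelle-like share of 11.4%, 0.07 in replicate 2, with a share of 0.732%, and -0.004 in replicate 3, with a share of 7.58%, and the part of these genes in the members' deviations was not tested. In 12 HAI PBZ replicate 2, 33 members lay more than 0.2 from their own mean, and in the other libraries 1 to 19 did so. The farthest single deviations were 0.37 in 12 HAI PBZ replicate 1 and -0.35 in 36 HAI PBZ replicate 3. The median correlation between 2 members over the 18 libraries was 0.13, where all genes of a library share its depth and scaling.

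**Figure D3:**
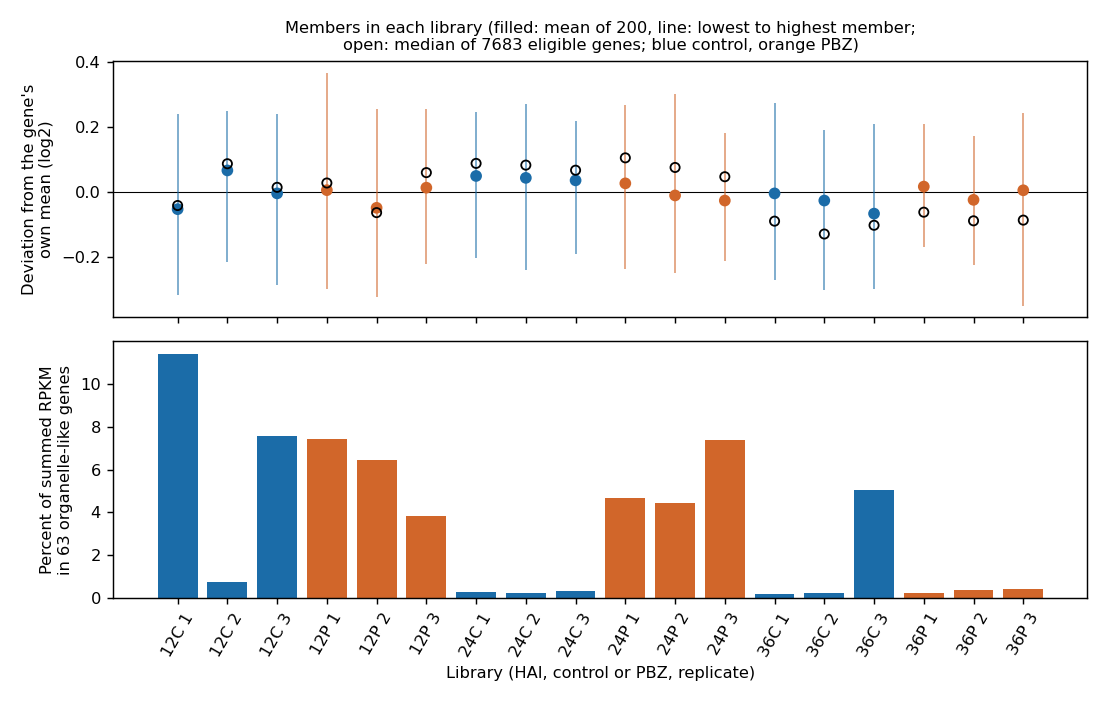
Upper panel: deviation of the members from their own means in each library (log2), as the mean of 200 members (filled points) and the lowest and highest member (lines), with the median of the 7683 eligible genes as open points. Lower panel: percent of summed RPKM in the 63 organelle-like genes, from 0.187% to 11.4%. Libraries are ordered by HAI, control (C, blue) and PBZ (P, orange) and replicate, and the filled points stay between -0.07 and 0.07.

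To read the spread in libraries that had no part in the choice, the choice was repeated on 12 libraries (2 replicates of every condition) and the spread was read in the 6 libraries of the third replicate. With replicate 1 held out, the 200 genes so chosen had a median SD of 0.119 in the held-out libraries against 0.312 for all genes at 10 RPKM or more in the 12 choosing libraries. With replicate 2 held out the medians were 0.129 and 0.324, and with replicate 3 they were 0.110 and 0.288. In the held-out libraries 199, 200 and 200 of the 200 chosen genes were below the median of those genes, and 139, 122 and 145 were in their lowest 10%. Relative to the SD in the libraries used to choose, the held-out median was 1.19, 1.35 and 1.04 times as large. The 6 libraries of a held-out set carried the same replicate number, so variation shared by libraries of that number does not enter this spread. They came from the same conditions and the same study, so the spread covers no other cultivar, tissue or laboratory. Both limits also hold for the held-out SDs given below.

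**Figure D4:**
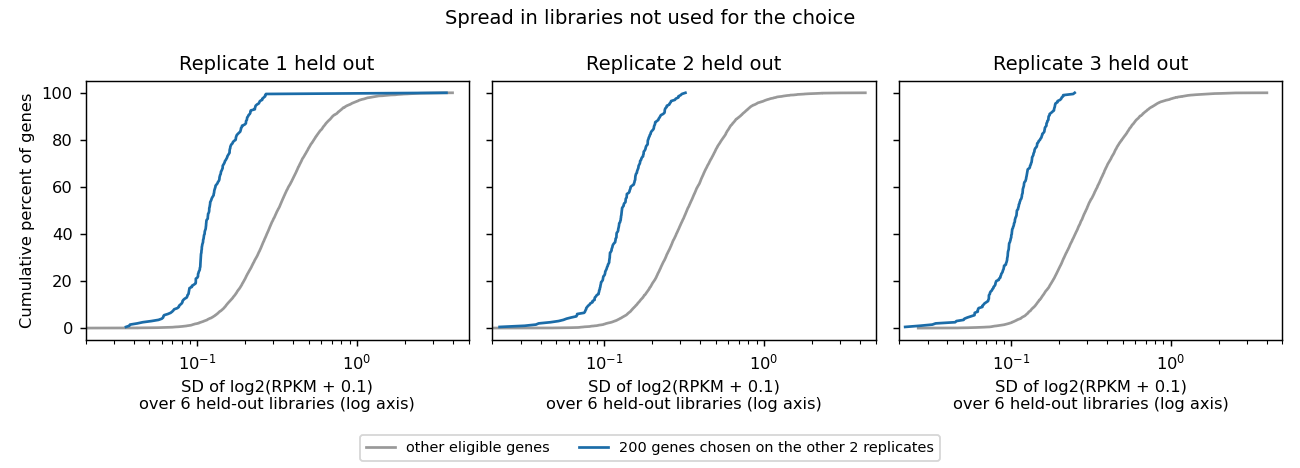
Cumulative percent of genes (y axis) by the SD of log2(RPKM + 0.1) over 6 held-out libraries (x axis, log axis), with replicate 1, 2 or 3 held out. Blue lines are 200 genes chosen on the other 12 libraries and grey lines the other genes at 10 RPKM or more in those 12, and the blue medians are 0.119, 0.129 and 0.110. The flat end of the blue line with replicate 1 held out is Glyma.11G237500, at an SD of 3.63.

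The one chosen gene that failed in held-out libraries was Glyma.11G237500. It was listed at 0 RPKM in 12 HAI PBZ replicate 1 and lay between 43.1 and 57.7 RPKM in the other 17 libraries, where it would have ranked 177. An exact 0 at that level can be a failed estimate, and it kept the gene out of the eligible genes. The 3 lists chosen on 12 libraries held 144, 131 and 159 of the members, and 89 members were in all 3 of these lists, 61 in 2, 45 in 1 and 5 in none. All of the first 50 members were in all 3 lists.

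Averaging several members reduced the spread further. The mean log2 level of the first 3 members had an SD of 0.0438 over the 18 libraries, that of the first 10 members 0.0320, and that of all 200 members 0.0366. In held-out libraries, where the choice had no part, the first 3 genes chosen gave SDs of 0.0885, 0.0695 and 0.0396 and the first 10 gave 0.0629, 0.0730 and 0.0488 for replicates 1, 2 and 3, whereas the single first gene gave 0.135, 0.0981 and 0.163. By the pairwise measure M, the mean SD of a gene's log2 ratios to the other members, the lowest genes were Glyma.06G041000 (0.114), Glyma.10G292100 (0.115), Glyma.20G077000 (0.117), Glyma.17G008100 (0.118) and Glyma.03G013000 (0.119), where the members had a median of 0.137 and a highest value of 0.160. A factor common to all genes of a library cancels in M. Glyma.06G041000 was measured at 19.1, 22.1 and 20.7 RPKM in 12 HAI control, 19.3, 19.1 and 20.5 with PBZ, 20.27, 20.6 and 20.7 in 24 HAI control, 20.25, 17.95 and 19.5 with PBZ, 19.9, 17.8 and 18.1 in 36 HAI control and 19.0, 18.3 and 20.0 with PBZ. Control and PBZ values overlapped at 12 and 36 HAI, and at 24 HAI the highest PBZ value lay just below the lowest control value.

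The study itself normalised RT-qPCR to Glyma.03G064800 (named Bic-C2) and used Glyma.02G273700 (F-box protein 2) as a second constitutive gene, and neither was a member. Glyma.03G064800 was at 12.5, 15.1 and 12.6 RPKM in 12 HAI control, 13.95, 14.3 and 14.2 with PBZ, 17.04, 19.5 and 18.9 in 24 HAI control, 15.7, 17.5 and 17.3 with PBZ, 18.1, 17.4 and 16.1 in 36 HAI control and 16.9, 18.9 and 17.04 with PBZ. Its 12 HAI values were below all of its later values, in control and with PBZ alike. The SD was 0.192 ± 0.0283, 1.80 times the members' median, and 1513 of the 7683 eligible genes (19.7%) had a smaller one. It ranked 1514 as deposited, 1258 with size factors, 1811 after quantile normalization and 595 after rescaling without the organelle-like genes. In limma it was higher at 36 than at 12 HAI by 0.36 ± 0.11 (SE, n = 3 and 3) on the log2 scale in control (limma adjusted p = 0.0190) and by 0.31 ± 0.096 with PBZ (adjusted p = 0.0214). Rescaling without the organelle-like genes left rises of 0.19 and 0.20 with adjusted p of 0.111 and 0.124, and leaving out 1 replicate gave adjusted p of 0.00987 to 0.0684 in control and 0.0214 to 0.0745 with PBZ. The rise passed 0.05 no longer in control without 12 HAI replicate 1 (0.0525), 12 HAI replicate 3 (0.0684) or 36 HAI replicate 1 (0.0667), and with PBZ without 12 HAI replicate 3 (0.0523), 36 HAI replicate 2 (0.0745) or 36 HAI replicate 3 (0.0518). Between PBZ and control, the contrast for which it served, its log2 differences were 0.08 ± 0.12, -0.13 ± 0.083 and 0.03 ± 0.087 at 12, 24 and 36 HAI, with adjusted p of 0.999, 0.344 and 0.927.

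Glyma.02G273700 was lower and was kept from eligibility by the floor, with 7 libraries under 10 RPKM. It was at 11.6, 10.9 and 10.6 RPKM in 12 HAI control, 10.5, 8.81 and 12.7 with PBZ, 10.7, 11.7 and 10.01 in 24 HAI control, 11.4, 10.4 and 8.55 with PBZ, 9.63, 9.36 and 9.59 in 36 HAI control and 8.46, 10.2 and 9.78 with PBZ. The control values of 36 HAI were all below those of 12 HAI. Its SD was 0.158 ± 0.0245, and 9.64% of eligible genes had a smaller one. The log2 change from 12 to 36 HAI was -0.21 ± 0.092 in control (adjusted p = 0.0739) and -0.16 ± 0.16 with PBZ (adjusted p = 0.394), and after the rescaling the change in control was -0.38 with an adjusted p of 0.00657. Its PBZ minus control differences were -0.06 ± 0.15, -0.10 ± 0.12 and -0.01 ± 0.096 at 12, 24 and 36 HAI, with adjusted p of 0.999, 0.623 and 0.977. Relative to the mean of the 200 members, Glyma.03G064800 went from -0.27 in 12 HAI control to 0.15 in 24 HAI control on the log2 scale, and Glyma.02G273700 from 0.10 in 12 HAI control to -0.07 in 36 HAI control. In the 3 sets of held-out libraries the SDs of Glyma.03G064800 were 0.198, 0.175 and 0.209 and those of Glyma.02G273700 were 0.168, 0.148 and 0.186. Each was above the median of the 200 genes chosen on the other libraries (0.119, 0.129 and 0.110). Each was also below the median of all genes at 10 RPKM or more in those libraries (0.312, 0.324 and 0.288). Both genes lay under the 90th percentile of the chosen genes for replicates 1 and 2 (0.208 and 0.225) and above it for replicate 3 (0.172).

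Names were at hand for 10 members (5%), all with identifiers of chromosome 1, because the table of annotated genes used here covered only part of that chromosome apart from genes called by the study. They were not a sample of the members' functions, and no class of function was counted. Glyma.01G122100 (rank 10) encodes an LMBR1-like membrane protein, Glyma.01G195400 (rank 13, 19.1 RPKM) a BSD domain protein, and Glyma.01G177700 (rank 34, 33.3 RPKM) an aminopeptidase P, which removes the first residue of peptides with proline in the next position. Glyma.01G015000 (rank 37, 27.9 RPKM) is related to RCD1, which in Arabidopsis binds transcription factors in stress responses. It was at 25.05, 26.8 and 25.2 RPKM in 12 HAI PBZ and at 29.3, 31.4 and 29.8 RPKM in 36 HAI PBZ, without overlap. Glyma.01G146400 (rank 54, 21.6 RPKM) is annotated as an interactor of JAZ, a class of adaptor that in Arabidopsis links the jasmonate repressors to a co-repressor, and Glyma.01G211700 (rank 61, 41.3 RPKM) as a calcium-binding EF-hand protein. Glyma.01G176600 (rank 87, 17.2 RPKM) encodes a C2H2 zinc finger protein, Glyma.01G138800 (rank 107, 15.5 RPKM) a DUF641 protein of unknown function, and Glyma.01G123300 (rank 127, 19.0 RPKM) a BAG family co-chaperone, a regulator of HSP70. Glyma.01G164100 (rank 128, 19.6 RPKM) encodes VPS35, the cargo-binding subunit of the retromer that recycles sorting receptors, and it was at 19.3, 21.1 and 20.5 RPKM in 12 HAI control and 17.8, 17.1 and 17.1 RPKM in 36 HAI control, without overlap.

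Classical reference families could be compared with the members only within the same part of chromosome 1, where 248 eligible genes were annotated and 10 were members, with a median SD of 0.299. No gene of such a family was a member there, but the annotated genes of these families were too few for this to be read further. Of 17 ribosomal protein genes (median SD 0.238) the steadiest was Glyma.01G029200, for the ubiquitin and ribosomal protein fusion S27a, with a mean of 212 RPKM, an SD of 0.148 and rank 563. A gene of the ubiquitin-conjugating E2 family annotated as a conjugating enzyme for the ubiquitin-like protein RUB, Glyma.01G178200 (99.0 RPKM), had an SD of 0.176, an F-box and kelch repeat gene, Glyma.01G045100, 0.205, and a translation elongation factor EF1B gene, Glyma.01G008800, 0.225. The catalytic subunit gene PP2A-2, Glyma.01G038800, had 0.276, a peptidyl-prolyl isomerase gene, Glyma.01G204300, 0.325, a histone H2A gene, Glyma.01G022100, 0.378, and a beta-tubulin gene, Glyma.01G109300, 0.502. Each of these was the lowest SD among the annotated genes of its family, which numbered 1 or 2 outside the ribosomal proteins. Actin, GAPDH, polyubiquitin, MON1 (SAND), TIP41 and SKIP16 genes were not among the annotated eligible genes and were not analysed here as families.

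How far the list holds depended on how the libraries were scaled and how stability was measured. Of the 200 members, 166 stayed among the 200 steadiest genes after quantile normalization, 122 with median-ratio size factors and 103 after rescaling without the organelle-like genes, and 63 stayed under all 3. The members did not scatter far: their median rank was 105.5, 141.5 and 190 under the 3 scalings, and 197, 200 and 199 of them were among the first 1000 genes. The 5 genes with the smallest SD among the 63 were the first 5 members, Glyma.02G165800, Glyma.16G056600, Glyma.01G222400, Glyma.20G077000 and Glyma.03G013000, although their ranks under the scalings ran from 3 to 171. Ranks moved far for the abundant members: Glyma.11G143400 was at rank 81 as deposited, 1 with size factors and 924 after quantile normalization. With the coefficient of variation in place of the SD of log2 values 192 members stayed, and with the range 160. Ranking by the SD of the 6 condition means kept 129 members and ranking by the SD within conditions kept 33. Leaving out 1 library kept 159 members (without 12 HAI PBZ replicate 2) to 191, and 146 members were in all 18 of these lists, among them all of the first 50 and 3 of the last 50.

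**Figure D5:**
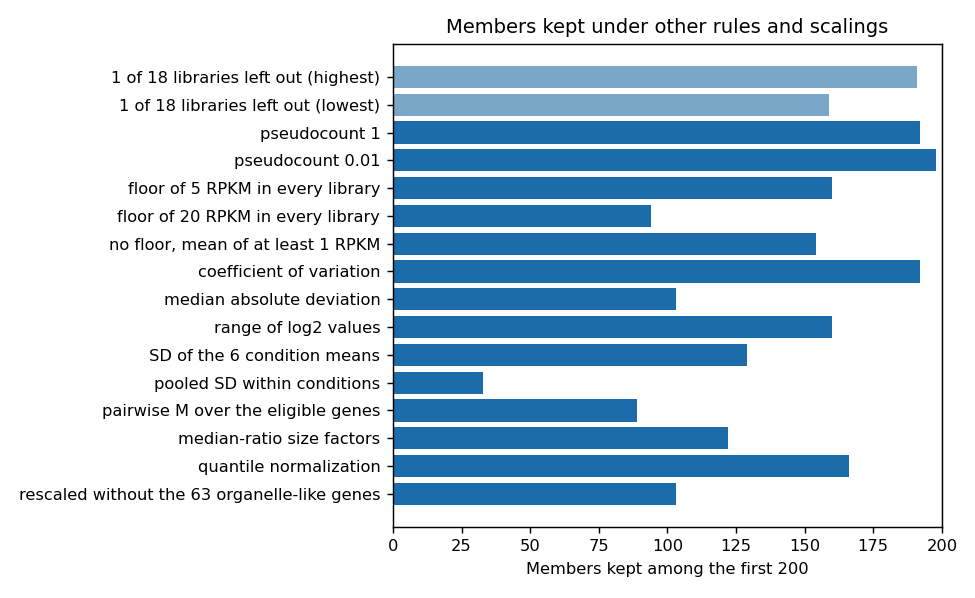
Number of the 200 members (x axis) that stayed among the 200 steadiest genes under other rules and scalings (dark bars) and with 1 of the 18 libraries left out (light bars, lowest and highest number). The number kept runs from 33 with the SD within conditions to 99% of the members with a pseudocount of 0.01, and is 159 to 191 with 1 library left out.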

How the data were processed

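RNA-seq libraries from embryonic axes (6 conditions, 3 replicates, 18 libraries) were compared as RPKM. According to the methods and the submitters' processing notes, the authors removed rRNA reads, aligned single-end reads to Wm82.a2.v1 with Novoalign 3.06.05, kept uniquely mapped reads and computed RPKM with Cufflinks 2.1.1, and the deposited RPKM values for 56044 genes were used as they are. Genes with near-identical copies keep only reads that tell the copies apart. The library kit named (TruSeq v2) does not mark strand whereas a strand-specific setting is stated for Cufflinks, so antisense overlap cannot be told apart. All 18 columns were matched to samples by name (0 unmapped).

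The members and lists were chosen with earlier results of these data known. SDs were taken of log2(RPKM + 0.1), and the floor was 10 RPKM. Conditions were compared, 3 against 3 libraries, with limma 3.58.1 in R 4.3.3 (trended empirical Bayes variance, Benjamini-Hochberg adjustment over all genes whose mean reached 1 RPKM in either group), and the call was an adjusted p of at most 0.05 with a log2 change of at least 1, a scale that understates the change of low genes. Other values came from Python 3.11.15, numpy 2.4.6, pandas 2.3.3 and scipy 1.17.1, and the scripts were tested on simulated data. RPKM carries no counts, so no counting interval was given and precision is read from replicates.

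The genes named are the 10 members with the smallest SD, those of highest and lowest level, those next to the limit, the RT-qPCR normalisers, the 5 with the smallest M, the 5 steadiest under all 3 scalings, the steadiest annotated gene of each reference family and the 3 eligible genes most like the first member. Annotated members and the members with the largest differences were named after their values were seen. The reference gene table used (assembly Glycine_max_v4.0) matched 0 identifiers, so no sequence is given and names are those of the study's tables. Alternatives were other pseudocounts, floors, measures of spread and scalings, no minimum change, a block for the replicate number, and leaving out each library. The alternatives for the tests of the RT-qPCR normalisers, for members called with no minimum change and for members counted by condition were chosen after seeing the data. Deviations of same-numbered control and PBZ libraries correlated positively but weakly (0.027 to 0.279), and 16 of 18 libraries correlated best with their own number. The methods state no pairing for the comparisons of sequenced libraries, so the block is given only among the alternatives.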

Additional observations from a re-analysis of the deposited data

Results flagged for a closer look

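In 12 members every PBZ sample lay above every control sample at one time point and below at another. This was 6% of the members, against 6.38% (490) of the 7683 eligible genes, a share near the background. The difference between the time points was not tested. Glyma.19G208200, described above, and Glyma.17G032500 were above control under PBZ at 12 HAI but under it at 24 HAI, and the other 10 were lower with PBZ at 12 or 24 HAI and higher at 36 HAI.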

How the results depend on the processing

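The list changed most, in members kept, with a floor of 20 RPKM (94), the median absolute deviation (103), the SD of condition means (129), the SD within conditions (33), pairwise M over the eligible genes (89), median-ratio size factors (122) and rescaling without the organelle-like genes (103), and with 1 library left out 159 to 191 were kept. The members' median SD of 0.106 became 0.101 with quantile normalization and 0.125 with the rescaling, and was 0.103 to 0.107 with 1 library left out. The held-out medians for replicates 1 and 3 became 0.129 and 0.121 with the rescaling. A floor of 20 RPKM removes, by its definition, members under 20 RPKM in any library, and 88 members were under it on average. The cause of the other shifts was not tested.

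Genes called between PBZ and control at 12 HAI were 3, but 0 with a pseudocount of 1, with a pseudocount of 0.01 and with a group mean of 5 RPKM, and 0 to 7 with 1 replicate left out. At 24 HAI they were 286, 1065 with no minimum change and 126 to 298 with 1 replicate left out. At 36 HAI they were 42, 26 with no filter on low values and 0 to 17 with 1 replicate left out. Between 36 and 12 HAI they were 14109 in control and 14813 with PBZ, 8917 and 9450 with a group mean of 5 RPKM, and 24423 and 23667 with no minimum change. Of the members, none was called in any of these settings except 5 in control and 3 with PBZ with no minimum change between 36 and 12 HAI.

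With the replicate block, the genes called at 12, 24 and 36 HAI were 4, 369 and 77, none of them a member. Those between 36 and 12 HAI were 14215 in control and 14895 with PBZ, again without a member. With no minimum change 1 member was called between 36 and 12 HAI in control, where 24267 of 33588 genes tested passed. With PBZ 0 members were called, where 22932 of 33825 genes tested passed. Deviations of same-numbered control and PBZ libraries correlated at 0.027 to 0.279, over 0.1 in 6 of 9 pairs, and 16 of 18 libraries correlated best with their own number. Under the block the adjusted p of Glyma.03G064800 between 36 and 12 HAI was 0.0273 in control and 0.0528 with PBZ.

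What depth limits cannot be computed from RPKM. Values are relative to each library's mapped reads, so a shift of the whole transcriptome would not show.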

Other observations

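Of 715 genes at 10 RPKM or more in exactly 17 libraries, 6 were listed at 0 in the remaining one, and the lowest value of the others was 3.24 RPKM. The 6 were Glyma.09G031100 and Glyma.11G237500 in 12 HAI PBZ replicate 1, Glyma.01G225300 and Glyma.12G128700 in replicate 2, and Glyma.08G100100 and Glyma.12G028300 in replicate 3, all 3 libraries of the same condition and none of any other. Their medians in the other 17 libraries ran from 15.4 RPKM (Glyma.12G128700) to 82.9 RPKM (Glyma.12G028300). Whether these are failed estimates or lost transcripts was not tested.

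By the chromosome number in the identifier, the members were 1.14% of the eligible genes of chromosome 3 (4 of 351) and 5.25% of those of chromosome 12 (17 of 324), with the other chromosomes in between. Over the 18 libraries the eligible genes most like Glyma.02G165800 were Glyma.09G170600, Glyma.08G216100 and Glyma.03G180100, with Pearson correlations of 0.71, 0.64 and 0.62, and none of them was a member, with SDs of 0.159, 0.241 and 0.143. All genes of a library share its depth and scaling, which enters these correlations.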
